A study of Mus musculus with 6 samples.

Results

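Trp53, the gene of the tumour suppressor p53, was followed with the genes of its MDM regulators and 7 of its direct targets in normal mouse lung and in lung tumours induced by urethane. The 10 genes (Trp53, Mdm2, Mdm4, Trp53inp1, Ccng1, Zmat3, Sesn1, Sesn2, Phlda3 and Eda2r) were taken by name from the 33924 gene names of the deposited count table. All 10 were found, and all 10 passed the filter on low counts. RNA was sequenced in bulk from FVB/NJ mice, an inbred strain, harvested at 6 months. The control group is normal lung (replicates 1, 2 and 3) and the tumour group is urethane-induced lung tumour (replicates 1, 2 and 4), so each group holds 3 libraries. The treatment protocol names saline or urethane, a chemical carcinogen, at 1 g per kg injected into the peritoneum. No transgene or engineered allele is named for either group. Age at injection, how tumour was separated from lung, and whether each library came from its own animal are not given in the labels. The p-values measure the spread between these libraries, and the labels do not say how much of it is technical.

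p53 is a transcription factor that is held at a low level by MDM2, a ubiquitin ligase, and is kept inactive by the related protein MDM4. Stress such as DNA damage frees p53, which then activates genes of cell cycle arrest, cell death, repair and metabolism. Mdm2 is itself one of those targets and so closes a feedback loop. In lung, loss or mutation of p53 is known for its part in tumour progression, and much of p53's regulation is at the level of the protein, which RNA counts do not measure.

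Promoter sequence was available from RefSeq (build GRCm38.p6) for 8 of the 10 genes, as 10 windows of 300 bases, each holding 250 bases before a start site and 50 after it. The motif searched was the 10-base p53 consensus half-site, a pattern that reads the same on both strands. A full p53 site is 2 such half-sites with a spacer of up to 13 bases. A half-site was found in 4 of the 10 windows, in those of Trp53, Mdm2, Ccng1 and Sesn1, and in 8.36% of all 32851 promoter windows. These genes belong here because they are known p53 targets or p53 itself, so the matches are a description and not evidence about the tumours. The stretches are shown because they place a p53 half-site in both a gene that rose (Ccng1) and one that fell (Sesn1). Capitals mark half-sites, and in Ccng1 a whole full site that departs from the consensus at 1 base, at positions -195 to -176 from the start. A full site with at most 1 such departure was found in 1.09% of all windows. The best full site departed at 2 bases in the Sesn1 window shown, at 3 in Trp53 and at 4 in Mdm2. The other Sesn1 window held no half-site, and its best full site departed at 5 bases.

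Ccng1, chr11:40755422-40755511, minus strand: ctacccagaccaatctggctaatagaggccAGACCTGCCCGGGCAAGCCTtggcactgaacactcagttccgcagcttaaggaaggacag
Sesn1, second start site, chr10:41887226-41887315, plus strand: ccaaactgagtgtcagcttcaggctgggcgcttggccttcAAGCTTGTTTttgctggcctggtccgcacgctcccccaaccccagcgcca
Mdm2, chr10:117710895-117710984, minus strand: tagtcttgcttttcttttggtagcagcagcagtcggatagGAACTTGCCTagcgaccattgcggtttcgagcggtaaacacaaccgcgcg
Trp53, chr11:69580244-69580333, plus strand: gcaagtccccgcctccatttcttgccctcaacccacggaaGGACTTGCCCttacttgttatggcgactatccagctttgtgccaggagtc
Cdkn1a, a p53 target outside the 10 genes, chr17:29090866-29090977, plus strand: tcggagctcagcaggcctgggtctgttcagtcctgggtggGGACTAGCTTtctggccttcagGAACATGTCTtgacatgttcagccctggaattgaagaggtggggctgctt

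The Cdkn1a stretch is given for comparison. Its 2 half-sites, 12 bases apart, form a full site with no departure from the consensus, as found in 0.0731% of windows. The bases right after the second half-site (tgacatgttc, in lower case) depart from the consensus at 1 base. With that half-site they form another full site, without a spacer. Only the pairing with the fewest departures was kept in each window, so this site is not marked. Another Cdkn1a window (chr17:29093519-29093818) held no half-site, and its best full site departed from the consensus at 5 bases. The windows of Sesn2, Mdm4, Phlda3 and Eda2r held no half-site, which says only that these letters are not in those windows. The Trp53inp1 and Zmat3 promoters were not analysed here.

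The 6 libraries held 38996532 to 62336537 counted reads, and each of the 10 genes had at least 145 reads in every library. Levels are given as CPM, the usual counts scaled to a common library size, after TMM scaling (which allows for differences in library composition). Tumour replicate 2 stood apart in sex-linked genes. Its Xist level was 3360 CPM, beside 32.9 CPM or less elsewhere, and none of Kdm5d, Eif2s3y, Uty and Ddx3y, which lie on the Y chromosome, exceeded 0.216 CPM there, whereas each reached 37.6 CPM or more in the other 5 libraries. The tumours also differed from lung in cell makeup. AT2 (alveolar type 2) markers rose in 9 of 10 cases, with summed levels of 10343 to 17047 CPM in control lung and 29517 to 66757 CPM in tumours, and Sftpc was abundant in every library. All 10 endothelial markers fell, from sums of 3185 to 4260 CPM to sums of 217 to 317 CPM, as did all 10 lymphocyte markers (93.6 to 176 CPM against 8.27 to 18.2 CPM) and 9 of 10 fibroblast and smooth muscle markers (1493 to 1931 CPM against 209 to 419 CPM). AT1 (alveolar type 1) markers fell in 6 and rose in 1 of 8 cases (3359 to 3835 CPM against 746 to 1058 CPM), and macrophage and neutrophil markers fell in 4 and rose in 1 of 10 (592 to 932 CPM against 157 to 463 CPM). All 8 club and ciliated cell markers fell, from sums of 9829 to 16434 CPM to 13.6 to 34.1 CPM. Of the ciliated cell markers, Ccdc153 had 0 reads in tumour replicates 1 and 2 and Foxj1 had 0 in tumour replicate 4. The part of these shifts in the results on p53 and its targets was not tested, and in bulk tissue fewer cells of a type and less RNA per cell cannot be told apart.

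Of the 10 genes, 3 rose in tumours (Zmat3, Sesn2 and Ccng1), 1 fell (Sesn1) and 6 did not pass the test (adjusted p under 0.05 by the quasi-likelihood test of edgeR, with Benjamini-Hochberg correction over 20001 genes). Across all genes tested 42.0% changed, 18.1% higher and 23.8% lower, so a count of 4 of 10 is near the background. With no scaling factor the split was 2549 higher and 5033 lower, against 3627 and 4770, and among the 10 genes it was 2 higher and 2 lower. The CPM of the groups did not overlap for 9 of the 10 genes (6 higher and 3 lower in every tumour library), against 56.0% of all genes tested (26.1% higher and 29.9% lower). Of those 9 genes, 5 did not pass the test. The median log2 fold change of the 10 genes was 0.40, beside 0.01 for all genes tested.

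**Figure D1:**
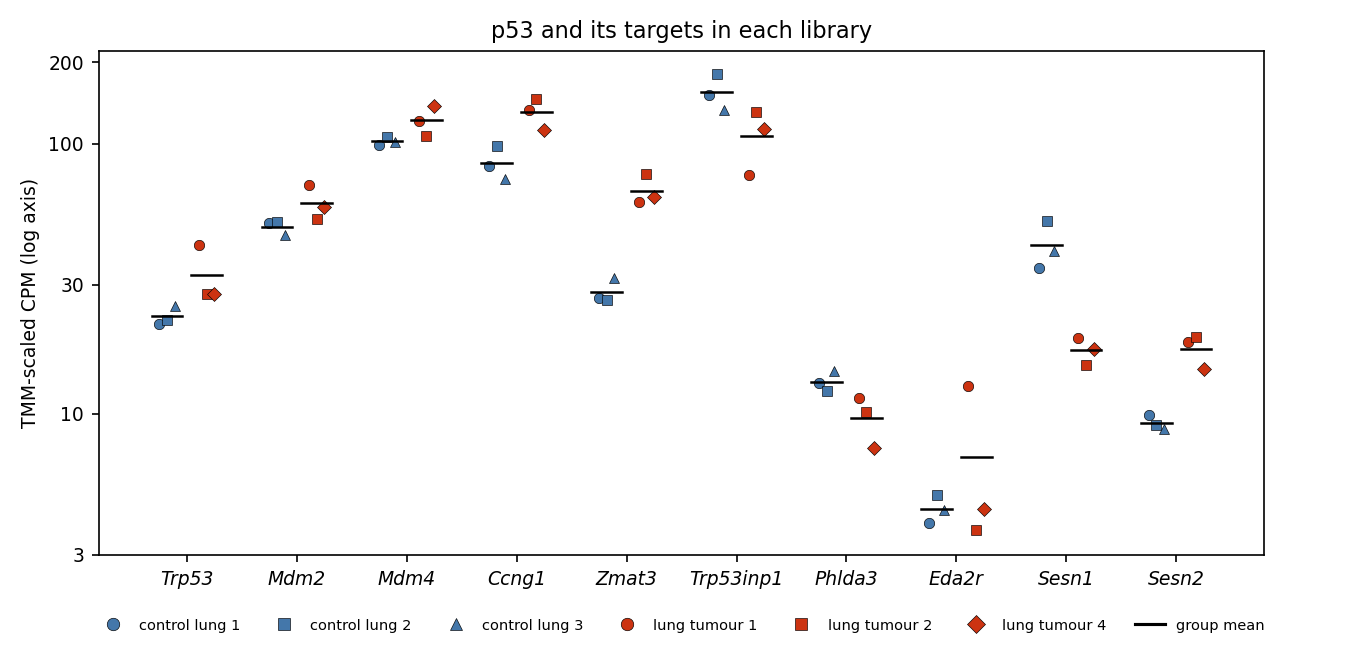
TMM-scaled CPM (vertical log axis) of the 10 genes in each library, with control lung in blue, lung tumour in red, the marker shape giving the replicate number and a black line at the group mean. Zmat3 and Sesn2 lie higher, and Sesn1 lower, in all 3 tumour libraries, and the Eda2r level of tumour replicate 1 (12.7 CPM) lies apart from the other 5 libraries (3.72 to 5.0 CPM).

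Trp53 itself (chr11:69393861-69405375 on mm9, plus strand) had 21.4, 22.2 and 25.1 CPM in control lung and 42.2, 27.7 and 27.6 CPM in tumour replicates 1, 2 and 4. Every tumour library was above every control, and tumour replicate 1 was well above the other tumours. The log2 fold change was 0.50 ± 0.20 (SE), with an adjusted p of 0.077, so the difference did not pass. Without tumour replicate 1 it was 0.30 (adjusted p = 0.101). A processed copy, Trp53-ps, is the main source of the 9.06% of the 32-base words of the longest Trp53 transcript that also occur in another gene.

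Mdm2, the ubiquitin ligase and p53 target (chr10:117125944-117147814, minus strand), had 50.7, 51.4 and 45.9 CPM in control lung and 70.5, 52.7 and 58.3 CPM in tumours. The lowest tumour level lay 1.03 times above the highest control level, so the groups were apart by a narrow margin. Its log2 fold change of 0.29 ± 0.15 did not pass (adjusted p = 0.160). Mdm4, the relative that binds p53 without serving as its main ligase (chr1:134886422-134921943, minus strand), had 99.1, 106 and 102 CPM in control lung and 121, 107 and 138 CPM in tumours. Tumour replicate 2 was within 1 CPM of the highest control, and the log2 fold change of 0.25 ± 0.15 did not pass either (adjusted p = 0.199). Of the 32-base words of Mdm4, 26.7% occur in another gene, mostly in its copy Mdm4-ps. Reads that map to both places may be missing from its counts, since multi-mapping reads were not requested.

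The balance of the pair was also read within each library, as the log2 ratio of reads per kilobase of exon, which does not depend on scaling between libraries. The log2 ratio of Mdm2 to Mdm4 was -1.58 ± 0.09 (SD, n = 3) in control lung and -1.55 ± 0.23 in tumours, a difference of 0.04 (two-sided exact permutation test, p = 0.90). Mdm2 therefore stood at 0.313 to 0.354 of the Mdm4 level per length in control lung and at 0.294 to 0.402 in tumours, and the ranges overlap. The difference took the other sign when control replicate 3 (-0.01) or tumour replicate 1 (-0.08) was left out. For Mdm2 against Trp53 the log2 ratio was 0.78 ± 0.20 in control lung and 0.59 ± 0.17 in tumours (difference -0.19, exact permutation p = 0.30). That ratio was lowest in tumour replicate 1 (0.41), the library with the most Trp53, which is its divisor, and also with the most Mdm2.

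**Figure D2:**
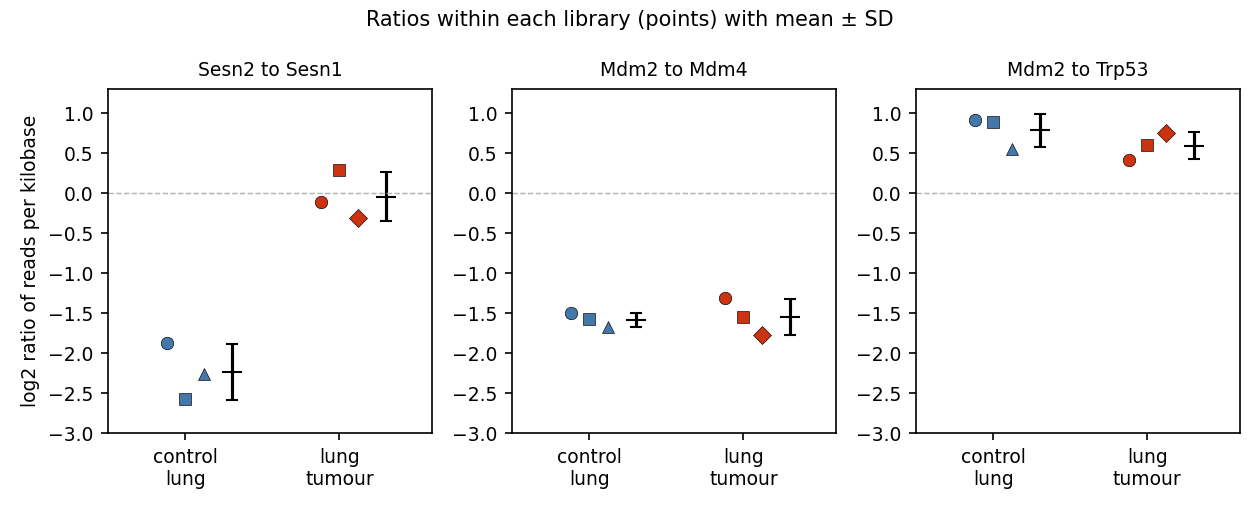
Log2 ratio of reads per kilobase of exon (vertical axis) for 3 pairs of genes within each library, with control lung in blue, tumours in red and the mean ± SD over 3 libraries beside the points. Sesn2 to Sesn1 moves from a mean of -2.24 to -0.05 with no overlap, while the ranges of the other pairs overlap.

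Zmat3, Ccng1 and Trp53inp1 are targets with unlike roles, of which Zmat3 and Ccng1 rose. Zmat3 encodes an RNA-binding zinc finger protein that acts downstream of p53 on splicing and RNA stability (chr3:32233718-32264600, minus strand). It had 26.8, 26.4 and 31.8 CPM in control lung and 60.6, 77.0 and 63.2 CPM in tumours. The lowest tumour library was above the highest control by 28.8 CPM, and the spread within each group was small beside that gap. This was the largest rise of the 10 genes, a log2 fold change of 1.24 ± 0.16 or 2.36-fold (adjusted p = 0.000459). It passed under every one of the 16 alternatives run, with log2 fold changes from 1.11 to 1.36.

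Ccng1 encodes cyclin G1, which recruits a phosphatase to MDM2 (chr11:40562054-40568813, minus strand). Its levels were 82.9, 98.0 and 74.1 CPM in control lung and 134, 147 and 112 CPM in tumours. The groups did not overlap, although control replicate 2 and tumour replicate 4 lay close to each other. The log2 fold change was 0.62 ± 0.17, or 1.54-fold (adjusted p = 0.0189). This call is the least firm of the 4. The adjusted p was 0.0640 without control replicate 1, 0.0612 without control replicate 3, 0.0573 without tumour replicate 2 and 0.0811 with no scaling factor, at log2 fold changes of 0.50 to 0.60.

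Trp53inp1 encodes a stress protein that binds p53 and also takes part in autophagy (chr4:11083578-11101526, plus strand). It had 151, 182 and 133 CPM in control lung and 76.8, 131 and 113 CPM in tumours. Tumour replicate 2 almost reached the lowest control, and tumour replicate 1 was the lowest of all 6 libraries. The log2 fold change of -0.54 ± 0.22 did not pass (adjusted p = 0.0846). It passed without tumour replicate 2 (adjusted p = 0.0451) and with no scaling factor (adjusted p = 0.0343), a setting that moved the median of all genes by -0.12 on the log2 scale.

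Phlda3 and Eda2r did not pass. Phlda3 encodes a small pleckstrin homology domain protein that competes with AKT for membrane lipids (chr1:137662696-137665713, plus strand). Control lung held 12.96, 12.1 and 14.3 CPM and tumours 11.4, 10.1 and 7.46 CPM, so all tumours were below all controls. The log2 fold change was -0.44 ± 0.21 (adjusted p = 0.126), and without tumour replicate 1 it was -0.55 and just passed (adjusted p = 0.0491).

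Eda2r encodes a receptor of the TNF receptor family that binds the A2 form of ectodysplasin (chrX:94529179-94572555, minus strand). It was the rarest of the 10 genes, with 3.94, 5.0 and 4.41 CPM in control lung. Tumour replicates 2 and 4 had 3.72 and 4.43 CPM, within or just under the control range, while tumour replicate 1 had 12.7 CPM, 3.11 times the mean of the other 2 tumours. The log2 fold change of 0.64 ± 0.46 did not pass (adjusted p = 0.297) and took the other sign, -0.10, without tumour replicate 1. Eda, the ectodysplasin gene, also had its highest tumour level in replicate 1 (5.62 CPM, with 0.952 and 1.78 CPM in replicates 2 and 4, and 4.51 to 5.82 CPM in control lung). Eda2r lies on the X chromosome, and tumour replicate 2, the library with high Xist, had the lowest level of the 6. It was close to control replicate 1 (3.72 against 3.94 CPM), and a link with sex was not tested.

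The sestrins moved apart. Sestrins are stress proteins that activate AMPK and restrain the mTORC1 growth pathway; Sesn1 and Sesn2 are p53 targets, and Sesn2 also answers to other stress factors such as ATF4. Sesn1 (chr10:41530380-41628230, plus strand) fell from 34.8, 51.9 and 40.1 CPM in control lung to 19.1, 15.1 and 17.4 CPM in tumours. Sesn2 (chr4:132047947-132066416, minus strand) rose from 9.92, 9.07 and 8.75 CPM to 18.5, 19.2 and 14.6 CPM. Neither gene overlapped between groups. The log2 fold change of Sesn1 was -1.30 ± 0.19, to 0.407 of the control level (adjusted p = 0.000950), and that of Sesn2 was 0.91 ± 0.18, or 1.88-fold (adjusted p = 0.00416). Leaving out any 1 library kept both calls, with Sesn1 between -1.42 and -1.12 and Sesn2 between 0.84 and 1.04.

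Per length of exon, Sesn2 stood at 0.167 to 0.273 of Sesn1 in control lung and at 0.804 to 1.22 of it in tumours. The log2 ratio was -2.24 ± 0.35 in control lung (SD, n = 3) and reached -0.05 ± 0.30 in tumours (SD, n = 3), a difference of 2.19. The exact permutation p was 0.10 (two-sided), which is also the lowest value possible with 3 libraries a group. Sesn3, the remaining sestrin and a target of FOXO factors, rose from 12.7 ± 2.97 to 28.9 ± 9.13 CPM (log2 fold change 1.19 ± 0.29, adjusted p = 0.0108). Of the 3 sestrins, Sesn1 fell while Sesn2 and Sesn3 rose.

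**Figure D3:**
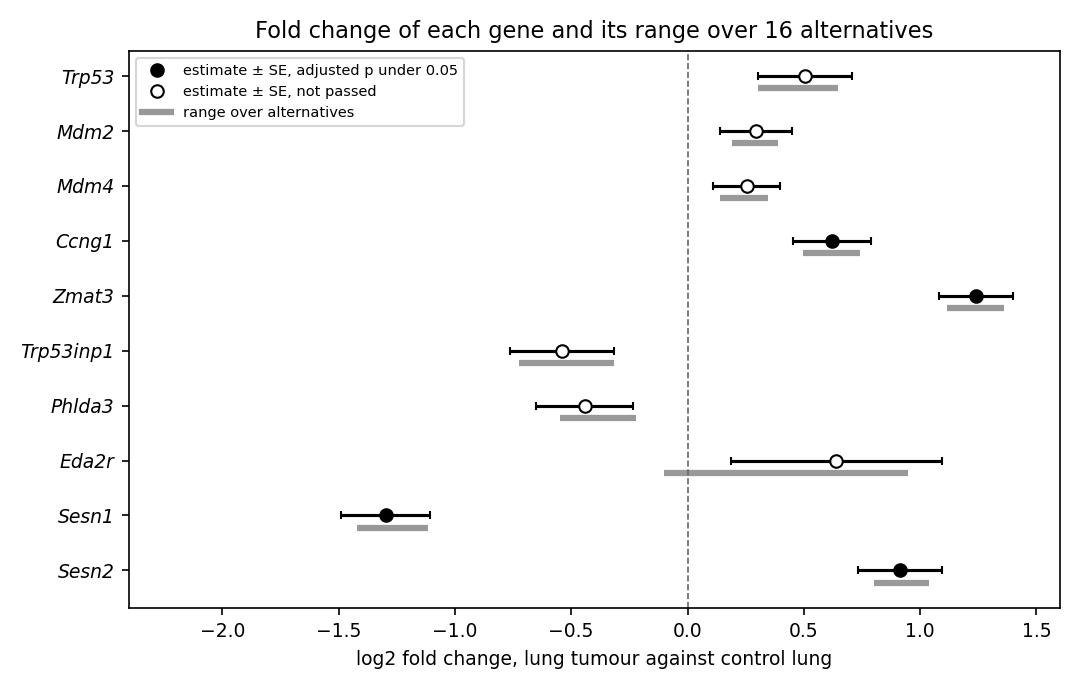
Log2 fold change of tumour against control lung (horizontal axis) for each of the 10 genes, with SE, filled where the adjusted p was under 0.05, and below it in grey the range over the 16 alternatives. Zmat3, Ccng1, Sesn2 and Sesn1 are filled, and the range of Eda2r alone crosses 0 (-0.10 to 0.95).

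Levels were compared between genes as RPKM (CPM per kilobase of exon). In control lung the order was Mdm4 (29.1 ± 1.02 RPKM, SD, n = 3), Ccng1 (24.2 ± 3.45), Trp53inp1 (24.0 ± 3.80), Sesn1 (12.7 ± 2.64), Mdm2 (9.73 ± 0.587), Phlda3 (8.43 ± 0.711), Trp53 (5.66 ± 0.476), Zmat3 (3.50 ± 0.371), Sesn2 (2.66 ± 0.173) and Eda2r (0.755 ± 0.0902). Neighbours in that order whose libraries overlapped were Ccng1 and Trp53inp1, and Mdm2 and Phlda3. In tumours Ccng1 (37.2 ± 5.02 RPKM) and Mdm4 (34.7 ± 4.37 RPKM) shared the top with overlapping ranges. Zmat3 rose from 8th to 5th place (8.27 ± 1.09 RPKM), and Sesn1 dropped from 4th to 8th (5.16 ± 0.599 RPKM), followed by Sesn2 (5.01 ± 0.716 RPKM). The places between are not separated: Zmat3 overlapped Trp53, Trp53 overlapped Phlda3, Phlda3 overlapped Sesn1 and Sesn1 overlapped Sesn2. Trp53inp1 and Mdm2, in 3rd and 4th place, also overlapped. Eda2r stayed last (1.18 ± 0.843 RPKM).

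Tumour libraries did not rank alike across the 10 genes. Replicate 1 was the highest tumour for 5 of them (Trp53, Mdm2, Sesn1, Phlda3 and Eda2r), as it was for 40.8% of all genes tested. It exceeded the mean of replicates 2 and 4 by 1.53 times for Trp53 and 1.27 times for Mdm2. For Zmat3 and Trp53inp1 it lay below that mean, at 0.864 and 0.631 of it. Among the 16 other p53 targets of cell death it was the highest tumour for 6 (37.5%). For Steap3, Pmaip1 and Tnfrsf10b it lay at 0.317, 0.593 and 0.764 of the mean of the other tumours, while a few genes were highest there, as Eda2r was. Aen, a nuclease gene, had 27.4 CPM in tumour replicate 1 and 13.3 and 11.1 CPM in replicates 2 and 4 (9.05 to 12.2 CPM in control lung). Aen was named as the gene nearest in pattern to Eda2r over these same libraries. Its height in replicate 1 therefore follows from that choice. Bax, the pore-forming apoptosis gene, had 29.2, 18.1 and 13.2 CPM in tumours and 14.4 to 17.6 CPM in control lung. Lrdd (now Pidd1) and Siva1, which were picked out after their values were seen, had 2.59 and 2.55 times the mean of the other tumours in replicate 1. The same library held the most Mki67, a proliferation marker, at 187 CPM against 80.9 and 77.7 CPM, and was the highest tumour for all 20 cell cycle genes examined. Its summed AT2 markers were the lowest of the tumours, at 29517 CPM against 66757 and 51604 CPM. Its macrophage and neutrophil sum was the lowest too, at 157 CPM against 463 and 371 CPM. So were its AT1 sum and its fibroblast and smooth muscle sum, while its remaining marker sums lay between those of the other tumours. With 1 library, these differences have no replicate check.

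**Figure D4:**
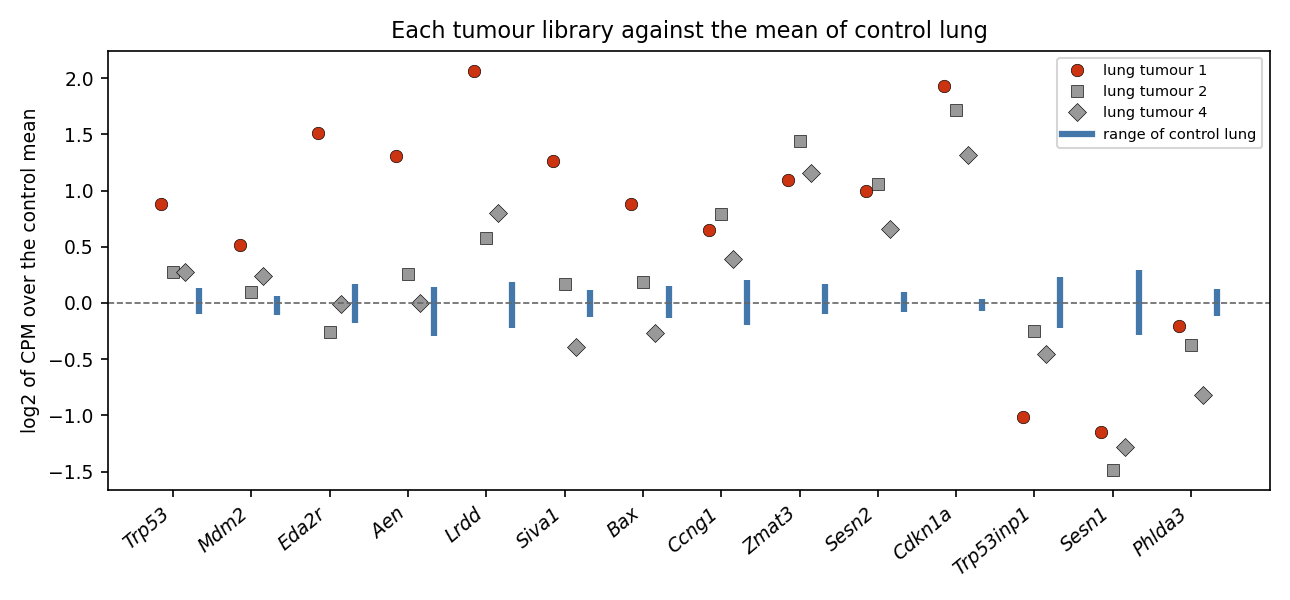
Log2 of each tumour library's CPM over the mean of control lung (vertical axis) for the 10 genes except Mdm4 and for 5 other p53 targets, with tumour replicate 1 in red, replicates 2 and 4 in grey and the range of the 3 control libraries as a blue bar. Replicate 1 lies above the other tumours for Trp53, Eda2r, Aen, Lrdd, Siva1 and Bax, and below them for Trp53inp1. By smaller margins it is also the highest tumour for Mdm2, Cdkn1a and Phlda3. It does not lie apart for Ccng1, Zmat3, Sesn2 or Sesn1. Aen, Lrdd and Siva1 were picked by their values in these libraries.

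The wider set of p53 targets split in both directions. Of 52 other targets, 11 rose, 10 fell and 31 did not pass, so 40.4% changed beside 42.0% of all genes tested. Their median log2 fold change was 0.11. Among 16 targets of arrest and growth, 5 rose and 4 fell (median 0.32). Cdkn1a, which encodes the cyclin-dependent kinase inhibitor p21, rose from 13.6, 13.7 and 12.7 CPM in control lung to 50.9, 43.9 and 33.2 CPM in tumours. This is a log2 fold change of 1.68 ± 0.19 (adjusted p = 0.000231), with no overlap between the groups. Of the words of Cdkn1a, 11.3% occur in another gene. Epha2, an ephrin receptor gene, and Plk2, a kinase gene, rose by 1.69 ± 0.19 and 1.28 ± 0.17. Cyfip2 (10.8% of its exon bases overlap another gene name), Cd82 and Ptp4a3 fell by 2.85 ± 0.29, 1.04 ± 0.20 and 1.12 ± 0.31; the adjusted p of Ptp4a3 was 0.0186, and 0.0612, 0.0755 and 0.0503 without control replicate 2, control replicate 3 and tumour replicate 2. Gdf15, a secreted stress factor that p53 induces, had 0.386 to 0.842 CPM in control lung and 1.44, 0.359 and 0.239 CPM in tumours (adjusted p = 0.860).

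Of 16 targets of cell death, 5 rose and 3 fell (median 0.34). Tnfrsf10b, the mouse TRAIL death receptor gene, rose from 3.93 ± 0.629 to 19.6 ± 3.46 CPM (log2 fold change 2.31 ± 0.22, adjusted p = 0.000109), with 15.8% of its words found in another gene. Dram1, a lysosomal membrane gene of autophagy, rose from 206 ± 55.0 to 997 ± 94.4 CPM, and Perp, a gene of epithelial junctions, from 15.3 ± 3.43 to 37.6 ± 4.69 CPM. Pmaip1, which encodes the BH3-only protein NOXA, fell from 20.3 ± 4.24 to 2.98 ± 0.818 CPM (log2 fold change -2.77 ± 0.28, adjusted p = 0.000140). Fas, a death receptor gene, fell by 1.35 ± 0.21, and Steap3, a ferrireductase gene, fell by 3.13 ± 0.42. Bbc3, the gene of the BH3-only protein PUMA, had 1.83 to 2.96 CPM in control lung and 2.60 to 2.93 CPM in tumours, and did not pass (adjusted p = 0.409). Bax did not pass either (log2 fold change 0.35 ± 0.28, adjusted p = 0.362), and 15.2% of its words occur in another gene.

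Targets of repair and metabolism changed in 4 of 20 cases (median 0.06), with 1 higher and 3 lower. Ak1, an adenylate kinase gene, rose by 2.51 ± 0.26 (adjusted p = 0.000171). Ephx1, an epoxide hydrolase gene that club cells and liver express, fell from 119 ± 12.4 to 44.7 ± 4.28 CPM. Rrm2b, the p53-inducible subunit of ribonucleotide reductase, and Lpin1 fell by 0.71 ± 0.15 and 0.88 ± 0.19. Of the words of Rrm2b, 14.6% occur in another gene.

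**Figure D5:**
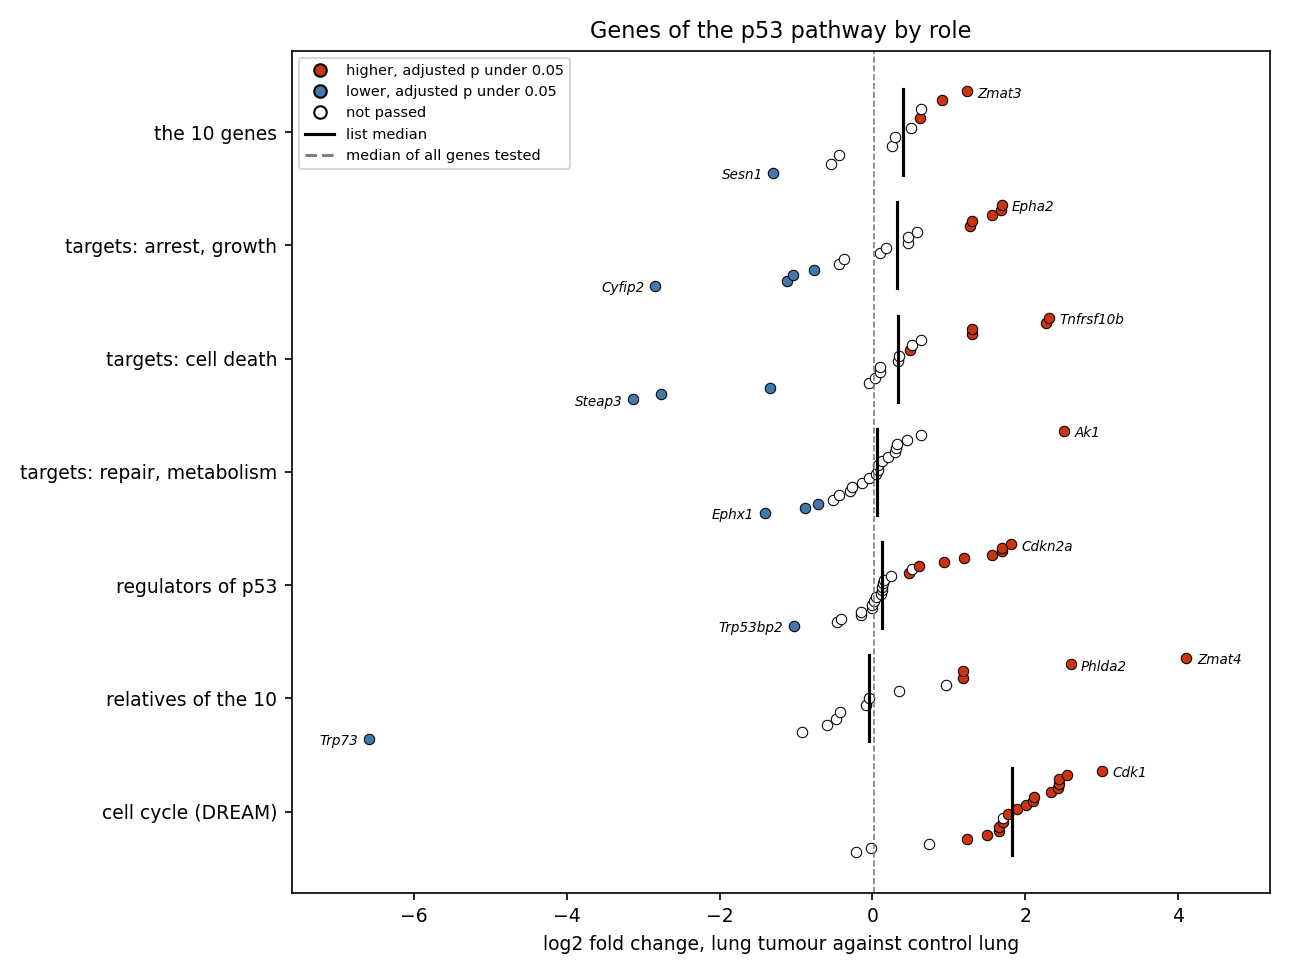
Log2 fold change of tumour against control lung (horizontal axis) for each gene of 7 lists, 1 point per gene, red or blue where it rose or fell at adjusted p under 0.05, with a black line at the list median and a dashed line at the median of all genes tested. The p53 targets spread to both sides of 0, while 16 of 20 cell cycle genes rose.

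Regulators of p53 rose in 8 and fell in 1 of 24 cases (median 0.13). The share that changed was 37.5%, beside 42.0% of all genes tested (18.1% higher and 23.8% lower). Chek1 and Chek2, genes of the checkpoint kinases, rose by 1.70 ± 0.30 and 1.57 ± 0.24, and Usp10, a deubiquitinase gene for p53, by 1.19 ± 0.17. Trp53bp2, which encodes a p53-binding protein that favours cell death targets, fell by 1.03 ± 0.15 (adjusted p = 0.00101). Cdkn2a, the locus of p16 and of ARF, the inhibitor of MDM2, had 0.245, 0.456 and 0.366 CPM in control lung and 1.73, 1.11 and 0.955 CPM in tumours. It rose by 1.81 ± 0.41 (adjusted p = 0.00829), but the 2 products share exons, so a count by gene name does not tell them apart. Atm, the DNA damage kinase gene, had 73.8 ± 6.15 CPM in control lung, 82.1 ± 3.34 CPM in tumours, and did not pass (adjusted p = 0.387).

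Relatives of the 10 genes share their family but not necessarily their control by p53. Of 13 relatives, 4 rose and 1 fell (median -0.04), so 38.5% changed beside 42.0% of all genes tested. Of the p53 family, Trp73 fell from 4.94 ± 0.658 to 0.0482 ± 0.0153 CPM (log2 fold change -6.59 ± 0.39, adjusted p = 1.73e-05), beside the fall of the ciliated cell markers described above, whose part in it was not tested. Trp63, with 0.528 to 0.652 CPM in control lung and 2.13, 0.323 and 0.890 CPM in tumours, did not pass (log2 fold change 0.96, adjusted p = 0.254). Its value rested on tumour replicate 1, without which it was 0.09 (adjusted p = 0.896), and without tumour replicate 2 it was 1.40 and passed (adjusted p = 0.0453). Zmat4 rose more than Zmat3, from 1.59 ± 0.179 to 27.5 ± 10.9 CPM (log2 fold change 4.11 ± 0.31), whereas Zmat1, Zmat2 and Zmat5 did not pass (log2 fold changes of -0.60, -0.09 and -0.48). Phlda1 and Phlda2 rose by 1.18 ± 0.26 and 2.59 ± 0.53, the second from low control levels of 0.162 to 0.190 CPM, while Phlda3 lay lower in every tumour. Without tumour replicate 1, which held 2.69 times the mean of the other tumours, the log2 fold change of Phlda2 was 1.98 (adjusted p = 0.00537). The words of Phlda1 occur in another gene in 34.8% of cases. Ccng2 (34.1 ± 3.05 and 33.1 ± 3.70 CPM), Trp53inp2 (101 ± 3.25 and 128 ± 52.0 CPM), Eda (5.27 ± 0.680 and 2.79 ± 2.49 CPM) and Edar (1.39 ± 0.0668 and 1.03 ± 0.449 CPM) did not pass. Trp53inp2 had a log2 fold change of 0.34 with all libraries, 0.66 without tumour replicate 1, where it passed (adjusted p = 0.00848), and 0.05 without tumour replicate 2 (adjusted p = 0.902). That of Eda was -0.92 with all libraries, -1.93 without tumour replicate 1, where it passed (adjusted p = 0.00151), and -0.50 without tumour replicate 2 (adjusted p = 0.426). Of the exon bases of Zmat5, 27.1% overlap another gene name, and 40.7% of its words occur in another gene.

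Cell cycle genes that p53 lowers indirectly, through p21 and the DREAM repressor complex, rose in 16 of 20 cases (median 1.83). None fell, and the share that rose was 80.0%, beside 18.1% of all genes tested. Cdkn1a rose in the same tumours. Mki67 went from 33.8 ± 6.55 to 115 ± 62.4 CPM (log2 fold change 1.77 ± 0.36, adjusted p = 0.00460). Kif23, Cenpf and Ccnb1, genes of cell division, rose by 2.43 ± 0.33, 2.34 ± 0.35 and 2.44 ± 0.38. Of the words of Ccnb1, 46.7% occur in another gene.

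Each of the 10 genes was set beside the 109 other genes of these lists by the root mean square difference of log2 CPM, centred on each gene's own mean over the 6 libraries (0 would be the same pattern). The nearest to Mdm2 was Usp7, the deubiquitinase gene of MDM2 and p53, at 0.0746, and the nearest to Mdm4 was Atm, at 0.114. The second nearest genes lay at 0.113 from Mdm2 and at 0.125 from Mdm4. Trp53 was nearest to Polh (0.136), Ccng1 to Ube3a (0.178), Phlda3 to E2f1 (0.182) and Trp53inp1 to Zmat5 (0.189). The remaining 4 genes had more distant neighbours. Sesn1 was nearest to Ephx1 (0.208), Sesn2 to Gadd45a (0.212), Eda2r to Aen (0.230) and Zmat3 to Usp10 (0.258). These distances describe 6 libraries that share 1 contrast. They are not scaled by the size of change, so genes that vary little lie near each other whatever their roles.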

How the data were processed

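Total RNA from lungs and tumours of mice was sequenced after Illumina library preparation, per the labels' protocols. Raw counts of reads were made by the authors with featureCounts 1.6.5, which summed exons by gene name on GENCODE vM1, per the file headers. Reads overlapping several names were counted for each, and no strand, pairing or multi-mapping option was set. No exon of the 10 genes overlaps another name. STAR, R 3.6.0, edgeR, limma and the builds mm9 and GRCm38 are listed in the submitters' processing notes. Gene coordinates are those of the table (mm9); promoter coordinates are GRCm38.p6 and were not mixed with them.

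Counts were tested with edgeR 4.0.16 in R 4.3.3: filterByExpr (minimum count 10), TMM, a model with 1 term for group, the quasi-likelihood F test, and Benjamini-Hochberg adjustment over 20001 genes. SEs come from the F statistic. The log2 CPM used for distances had a prior count of 2. Ratios within libraries were tested with exact permutation tests. Alternatives were DESeq2 1.42.0, limma-voom (limma 3.58.1), RLE, upper quartile and no scaling, no filter or 1 CPM in 3 libraries, an adjusted p under 0.01, a test against a 1.2-fold change, each library left out and a replicate block. No 2 libraries of a group were alike within sampling noise (their chi-square was 59.1 to 258 times its degrees of freedom).

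The 10 genes and the lists (14 lists of 185 entries, all matched, 6 through an older name) were chosen with earlier results of these data known. Genes named by rule were the 10 genes, their relatives, 8 fixed genes, the 3 changed genes of lowest p in each direction of each other pathway list, and the nearest gene of each of the 10. Outside this rule, Lrdd and Siva1 were picked out after their values were seen, and sex-linked genes and some cell type markers were also named. Shared sequence was measured on 32-base words from the longest GENCODE M21 transcript, as the percentage that another gene also holds.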

Additional observations from a re-analysis of the deposited data

How the results depend on the processing

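Of the 10 genes, 4 changed in the fit as reported and 3 to 5 when 1 library was left out; the counts were 39 to 50 for the 109 other pathway genes (51 with all libraries) and 6421 to 9436 for all genes (8397). The count was also 4 of the 10 genes with DESeq2 and with limma-voom. Replicate numbers 1 and 2 occur in both groups, but nothing in the labels says that they pair libraries, and the deviations of same-numbered libraries correlated at -0.18 and -0.01 across genes. With a replicate block, which leaves 1 residual degree of freedom, 3641 genes, 22 of the 109 pathway genes and 2 of the 10 genes (Zmat3 and Sesn1) passed; Ccng1 and Sesn2 had adjusted p of 0.153 and 0.0896. At an adjusted p under 0.01, 5628 genes and 3 of the 10 passed. The difference in log2 ratio was -0.076 to 0.15 for Mdm2 to Mdm4 with 1 library left out, reversing to -0.01 without control replicate 3 and to -0.076 without tumour replicate 1. For Sesn2 to Sesn1 it was 2.02 to 2.37, and for Mdm2 to Trp53 -0.31 to -0.10. Log2 fold changes of 5 genes, which passed in none of the settings run, changed sign in some: Eda2r (-0.10), Ccng2 (0.077), Zmat2 (0.041) and Gdf15 (-0.97) without tumour replicate 1, Ccng2 (0.038) and Zmat2 (0.019) without control replicate 2, Gdf15 without control replicate 3 (-0.048) and with limma-voom (-0.13), and E2f1 with the replicate block (0.016). With 1 library left out, the ranges were -0.10 to 0.95 for Eda2r, -0.0901 to 0.077 for Ccng2, -0.16 to 0.041 for Zmat2 and -0.97 to 0.58 for Gdf15. The cause of these changes was not tested. Of the 58 genes named by the rule, 4 (Trp63, Phlda2, Gdf15 and Cdkn2a) had no value under the 1 CPM filter. With the replicate block 15 of the 58 lost their call, among them Cdkn2a and Phlda2 (adjusted p of 0.1215 and 0.0649). Ube3a, at an adjusted p of 0.0436, did not pass when any 1 library was left out (0.0502 to 0.115), and Gadd45a passed with DESeq2 only (0.0443).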
